A study of Mus musculus with 14 samples.

Results

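Neonatal cerebellum was represented by 4 of the 14 arrays of the series: 2 arrays of MatDp7 mice and 2 of PatDp7 mice, numbered replicate 1 and replicate 2 in each. They were chosen by their labels. All mice were T9H/+ heterozygotes, carriers of a translocation between chromosomes 7 and 15. In MatDp7 mice, proximal chromosome 7 was duplicated from the mother and proximal chromosome 15 from the father, and in PatDp7 mice the origins were exchanged. Every difference between these groups is therefore a difference between 2 duplications, with no array of undisturbed mice beside them. The other arrays held neonatal cortex (4 arrays), brain at 15.5 days post coitum (dpc, 4 arrays) and brain at 13.5 dpc (2 arrays) with the same duplications. The labels call the replicates biological but name no animals, pools or sex, so p-values measure the spread between these samples, which may in part be technical.

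Genomic imprinting silences 1 parental copy of a gene according to the parent that transmitted it. When both copies of a segment come from the mother, genes read only from the paternal copy lose their active copy, and the reverse holds for genes read only from the maternal copy. Proximal chromosome 7 carries the Peg3 cluster and the cluster that corresponds to the human Prader-Willi and Angelman syndrome region. In that region, Snurf-Snrpn, Ndn, Magel2, Mkrn3 and Peg12 are read from the paternal copy, while Ube3a is read in neurons mainly from the maternal copy and in glia from both.

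Sequence at the starts of some genes with large differences is shown because CpG methylation is the classical carrier of an imprint. Which of these starts carry one was not tested. All runs are from the RefSeq table of the mouse build GRCm38.p6, 5′ to 3′ on the strand of the gene, with CpG dinucleotides in capitals. Peg3 and Usp29 are read in opposite directions from a shared region, and the 96 bases between their outermost annotated starts (chr7:6730463-6730558, + strand) hold 3 CpG. The other runs are the 150 bases before the start: Snurf (chr7:60005200-60005349, - strand) with 3 CpG, Ndn (chr7:62348127-62348276, + strand) with 4, and Ube3a (chr7:59228600-59228749, + strand) with 22.
Peg3-Usp29: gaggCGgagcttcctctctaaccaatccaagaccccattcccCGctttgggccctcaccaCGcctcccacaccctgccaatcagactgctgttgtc
Snurf: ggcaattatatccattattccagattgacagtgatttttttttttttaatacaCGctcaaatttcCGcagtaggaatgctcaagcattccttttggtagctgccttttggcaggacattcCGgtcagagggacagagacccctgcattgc
Ndn: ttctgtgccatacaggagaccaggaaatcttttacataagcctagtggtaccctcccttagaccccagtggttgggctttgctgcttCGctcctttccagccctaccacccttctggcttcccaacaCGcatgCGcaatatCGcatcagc
Ube3a: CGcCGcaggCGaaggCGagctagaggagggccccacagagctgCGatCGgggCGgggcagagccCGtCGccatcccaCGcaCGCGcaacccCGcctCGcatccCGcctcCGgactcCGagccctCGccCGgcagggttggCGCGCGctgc
Over the 250 bases before the start, Ube3a had 24 CpG, and 11.98% of the 32851 promoters in the table had at least as many. Among the paternally expressed genes, Snurf had 3, Ndn 5, Magel2 7, Peg3 8, Peg12 8, Mkrn3 10 and Usp29 14, against a median of 6 over all promoters. These counts describe the reference sequence, and no methylation was measured here.

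Values are MAS5 intensities on a linear scale, and differences are of log2(intensity + 51.8), PatDp7 minus MatDp7. The arrays differed more by replicate number than by duplication. Over the 13576 tested probe sets, the median absolute log2 difference was 0.352 between the MatDp7 arrays and 0.385 between the PatDp7 arrays, but 0.196 between the duplications within replicate 1 and 0.148 within replicate 2. The replicate differences of the 2 duplications had a correlation of 0.815 across probe sets, which are not independent replicates. Xist, the transcript that coats the inactive X chromosome of female cells, had intensities of 201 in MatDp7 and 232 in PatDp7 in replicate 1, and of 2882 and 3205 in replicate 2. The highest intensity on the array was 43099 in MatDp7 and 44235 in PatDp7 in replicate 1, and 18585 and 17662 in replicate 2. What sets the replicate numbers apart was not tested. Each number held 1 array of each duplication, so differences are given within each pair as well as from the fit.

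The tissue label was checked against the cortex arrays, probe set by probe set. Of 9 tested forebrain markers 7 were lower on all 4 cerebellum arrays than on any cortex array, against 3.19% of all tested genes. Neurod6, a factor of forebrain excitatory neurons, had 123 to 215 in cerebellum and 1183 to 1669 in cortex, and Dlx1, a factor of forebrain inhibitory neurons, had 3.54 to 11.1 against 724 to 988. Of 13 tested Purkinje cell markers 4 were higher on all cerebellum arrays, against 3.11% of all tested genes, among them En2, a hindbrain and midbrain patterning gene, with 231 to 489 against 18.0 to 89.1. Granule cell lineage markers did not mark the tissue as a list, with 2 of 16 higher and 4 lower. Barhl1, a factor of that lineage, had 471 to 1103 in cerebellum against 169 to 231 in cortex, whereas Zic1 had 2429 to 5643 against 2230 to 8108, and its ranges overlapped.

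Few probe sets passed the test for parental origin in the cerebellum, and those that did were mostly of genes in the imprinted clusters. With 2 arrays per group smaller differences may go uncalled, so the calls do not count all transcripts that differ. With the limma fit over all 14 arrays, 15 of the 13576 tested probe sets passed a Benjamini-Hochberg adjusted p of 0.05 (0.11%), 11 higher in PatDp7 (0.081%) and 4 lower (0.0295%). The higher ones were 5 probe sets of Ndn, 3 of Peg3 and 3 that the annotation gives to both Snurf and Snrpn. The lower ones were 2 probe sets of C230091D08Rik and 2 with no gene in the annotation. An unadjusted p under 0.05 was found for 123 probe sets (0.906%). The fit without the block leaves the difference between replicate numbers in its error. A limma p above 0.05 in that fit is therefore weak evidence that a gene does not differ.

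With the replicate number as a block, 21 probe sets passed (0.155%), 12 higher (0.0884%) and 9 lower (0.0663%), among them all 15 of the fit without it. The 6 that the block added were the remaining Snurf/Snrpn probe set, 2 of Ube3a, 1 of Uri1 and 2 with no gene. A plain count within the pairs, with no test, gave 26 probe sets with a log2 difference of at least 1 and the same sign in both (0.192%), 13 higher and 13 lower. Its 13 higher probe sets were the 12 named above for Ndn, Peg3 and Snurf/Snrpn together with Magel2. Another 215 probe sets passed 1 in replicate 1 alone and 54 in replicate 2 alone, so a difference seen in a single pair was far more frequent than one seen in both.

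**Figure D1:**
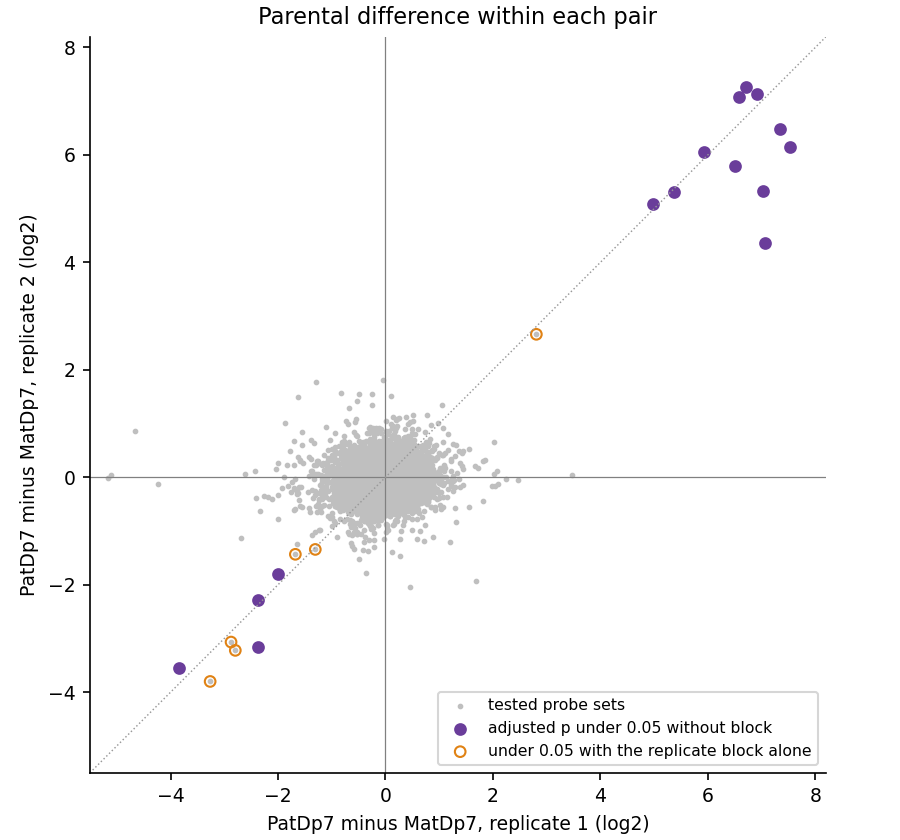
Log2 difference PatDp7 minus MatDp7 of each of the 13576 tested probe sets in replicate 1 (horizontal) and replicate 2 (vertical); filled points passed an adjusted p of 0.05 without the block (15) and open circles with it alone (6). Most called points lie near the dotted line of equal differences, away from the grey cloud, while 5 grey points past 3 in size in replicate 1 are under 1 in size in replicate 2.

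Peg3, a zinc finger gene that gives its name to the first cluster, was far lower in MatDp7 than in PatDp7 at each of its tested probe sets. The Peg3 probe set 1433924_at had intensities of 39.0 and 57.0 in MatDp7 and 8220 and 5986 in PatDp7. A second, 1417356_at, had 4.6 and 3.6 against 2280 and 2139. The groups did not overlap, and the log2 differences were 6.15 ± 0.30 (SE) and 5.34 ± 0.176, with limma adjusted p of 1.99e-05 and 2.31e-06.

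The brightest Peg3 probe set, 1417355_at, had 60.9 and 181 in MatDp7 and 14968 and 4699 in PatDp7. Its difference was 7.06 in replicate 1 and 4.35 in replicate 2, and 5.71 ± 0.684 in the fit (limma adjusted p = 0.0161). That call was lost without MatDp7 replicate 1 (limma adjusted p = 0.189), MatDp7 replicate 2 (0.059) or PatDp7 replicate 1 (0.135). With the replicate block it was lost in none of the 4 fits that left out 1 array. The size of these differences depends on the added constant, most for 1417356_at, whose MatDp7 values lie far under it. With a constant of 18.11 in place of 51.8 its difference was 6.65, and that of 1417355_at was 6.07.

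Usp29, which encodes a ubiquitin-specific protease and starts beside Peg3, followed the same direction. It was below the filter on low values and was therefore tested in a fit of all 22626 probe sets, in which 17 were called (0.0751%). Usp29 had 8.40 and 13.6 in MatDp7 and 856 and 743 in PatDp7, a difference of 3.76 ± 0.225 (limma adjusted p = 7.23e-05). Its other probe set, 1427551_at, had 146 and 75.2 against 184 and 118, and the values of the groups overlapped.

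Of the maternally expressed zinc finger genes listed for the Peg3 cluster, Zim1 had the opposite order without passing the test and Zim3 did not follow it. Zim1 intensities were 159 and 112 in MatDp7 and 80.3 and 33.2 in PatDp7, a difference of -0.81 ± 0.277 that limma did not call. Zim3 had 202 and 119 against 156 and 181, with differences of opposite sign in the pairs, -0.29 and 0.45, and of 0.08 ± 0.429 in the fit.

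In the second cluster, Snurf-Snrpn, whose transcript encodes both SNURF and the splicing protein SmN, was represented by 4 tested probe sets that the annotation assigns to both names. The Snurf/Snrpn probe set 1435716_x_at had 9.13 and 6.77 in MatDp7 and 6350 and 8917 in PatDp7, a difference of 6.99 ± 0.259 (limma adjusted p = 3.32e-06). The probe set 1421063_s_at gave 6.83 ± 0.344 and 1415896_x_at gave 5.04 ± 0.284, both called. The last of them, 1415895_at, was not low in MatDp7, at 2337 and 2203, against 16691 and 14217 in PatDp7. Its difference of 2.74 ± 0.417 passed with the replicate block (limma adjusted p = 0.00159) and not without it (0.0777), and with the block it was lost without MatDp7 replicate 1 (0.0893). A separate probe set assigned to Snrpn alone, below the filter, had 16.9 and 9.33 against 213 and 406, and was called in the unfiltered fit (limma adjusted p = 0.0191).

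Ndn encodes necdin, a MAGE family protein that restrains growth in postmitotic neurons. The Ndn probe set with the highest mean, 1437853_x_at, had 137 and 141 in MatDp7 and 11451 and 12752 in PatDp7. Its difference was 5.93 in replicate 1, 6.05 in replicate 2 and 5.99 ± 0.361 in the fit (limma adjusted p = 5.78e-05). The other 4 tested probe sets of Ndn differed by 6.18 to 7.02, all called. Another 3 Ndn probe sets lay below the filter, with no value above 178 on the 4 arrays and differences of 0.81, 0.55 and -0.10, none called. Probe sets given to the same gene thus ranged from a difference of 7.02 to none that could be detected.

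Magel2, the MAGE gene beside Ndn, had 167 and 173 in MatDp7 and 404 and 524 in PatDp7. The groups did not overlap, and the difference was 1.06 in replicate 1 and 1.35 in replicate 2. The fit gave 1.21 ± 0.30, which did not pass without the block or with it (limma adjusted p = 0.312 with it). Among the 13576 tested probe sets, 926 had both PatDp7 values above both MatDp7 values (6.82%), so absence of overlap alone was frequent.

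Mkrn3, an imprinted gene that encodes a makorin RING finger protein, was below the filter. It had 2.91 and 2.24 in MatDp7 and 402 and 1347 in PatDp7, and the unfiltered fit gave 3.87 ± 0.481 (limma adjusted p = 0.0251). Peg12, the last gene of the cluster, had 2.01 and 0.66 against 15.0 and 26.9, all under the added constant, and was not called. A230006K03Rik, a transcript of the same region, had 9.47 and 30.4 in MatDp7 and 510.2 and 145 in PatDp7, a difference of 2.23 ± 0.479 (limma adjusted p = 0.838). Counted by probe sets assigned to a single gene, 8 of the 12 paternally expressed genes listed for proximal chromosome 7 were on the array. Of these, 3 passed the filter, Ndn, Peg3 and Magel2. The tested probe sets assigned to both Snurf and Snrpn are outside this count.

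Ndn and Magel2 were the only genes of 7 tested MAGE family members that passed a difference of 1 in both pairs. The other 5 differed by -0.11 to 0.12. Maged1, an X-linked member widely present in brain, had 3332 and 4078 in MatDp7 and 3104 and 3868 in PatDp7, a difference of -0.09 ± 0.229.

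**Figure D2:**
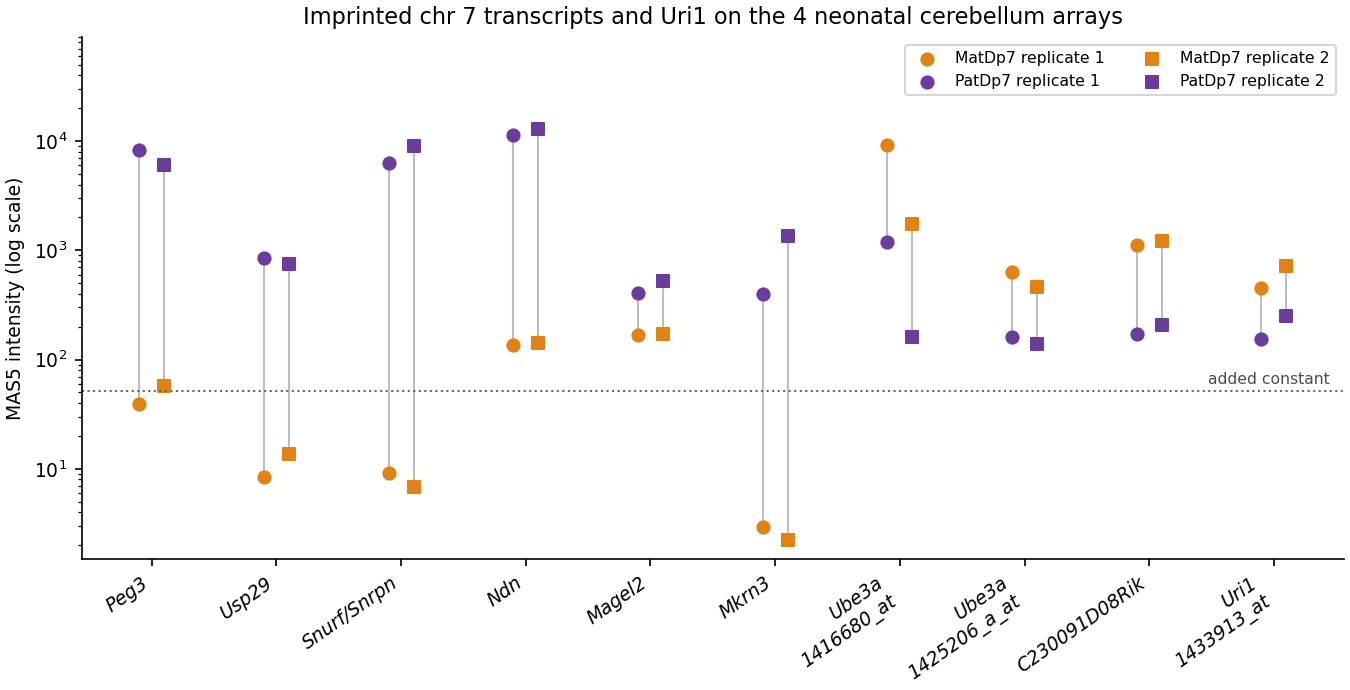
Intensity (log scale) on the 4 cerebellum arrays; orange is MatDp7, purple is PatDp7, circles are replicate 1, squares replicate 2, and grey lines join the arrays of a pair. Peg3, Usp29, Snurf/Snrpn, Ndn and Mkrn3 are far lower in MatDp7 than in PatDp7, Magel2 less so, Ube3a, C230091D08Rik and Uri1 are higher in MatDp7, and the dotted line is the added constant.

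Ube3a, the ubiquitin ligase gene read from the maternal copy in neurons, was lower in PatDp7 at each of its 4 probe sets and in both pairs. The brightest, 1416680_at, had 9128 and 1740 in MatDp7 and 1201 and 162 in PatDp7. The groups did not overlap, but replicate 1 exceeded replicate 2 more than 5-fold in each duplication, and PatDp7 replicate 1 lay close to MatDp7 replicate 2. The within-pair differences were nearly equal, -2.87 and -3.07. The fit without the block gave -2.97 ± 1.16 (unadjusted p = 0.0298) and made no call, and the fit with it gave -2.97 ± 0.266 (limma adjusted p = 0.000142).

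A second Ube3a probe set, 1425206_a_at, had 632 and 462 in MatDp7 and 162 and 139 in PatDp7, a difference of -1.55 ± 0.277. It passed with the block (limma adjusted p = 0.0358) and not without it (0.234), and with the block it was lost in each of 4 fits that left out 1 array (0.141 to 0.798). The other Ube3a probe sets, 1416681_at and 1416682_at, lay below the filter and differed by -1.45 and -0.78, with neither called. Detection calls were not used here, so whether Ube3a was detected in PatDp7 was not tested. In whole tissue, fewer cells that contain a transcript and less of it per cell cannot be told apart.

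C230091D08Rik, listed here with the transcripts of the imprinted clusters but given no position by the gene table, was the 1 gene called lower in PatDp7 without the block. The C230091D08Rik probe set 1438695_at had 1109 and 1208 in MatDp7 and 172 and 207 in PatDp7. The differences were -2.37 and -2.28 in the pairs and -2.33 ± 0.264 in the fit (limma adjusted p = 0.0113). Its second probe set, 1437354_at, had 1174 and 929.9 against 254 and 229.6, a difference of -1.90 ± 0.264 (limma adjusted p = 0.0413). Both calls were lost in each of 4 fits that left out 1 array, with a limma adjusted p of 0.0602 to 0.152 for 1438695_at and of 0.172 to 0.5 for 1437354_at. With the block 1438695_at was lost in none of the 4, and 1437354_at without MatDp7 replicate 1 (0.15) or PatDp7 replicate 1 (0.0678).

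The other ligases with a HECT domain, the catalytic domain of UBE3A, showed nothing of this size. Of 13 tested members of the family none was called without the block, against 0.0368% of all 8156 tested genes. Ube3a was the 1 called with the block, where 2 of all tested genes were called higher and 2 lower. Counts this low say little about the family. The other 12 differed by -0.34 to 0.11. Herc2, a HECT gene of the same chromosome that lies outside the imprinted genes, had 578 and 679 in MatDp7 and 518 and 451 in PatDp7, a difference of -0.34 ± 0.334.

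The 14 tested neighbours of the imprinted clusters had a median difference of -0.04, and 0 were called by limma, with 0 at an unadjusted p under 0.05. Among the 253 tested genes of chromosome 7 from its start to Peg12 the median was -0.05, with 2 called higher and 0 lower without the block, 2 higher and 1 lower with it, and 9 at an unadjusted p under 0.05. The 336 tested genes beyond Peg12 also had a median of -0.05, with 0 called in either fit and 3 at an unadjusted p under 0.05. The 319 tested genes of chromosome 15, whose proximal part carries the opposite duplication, had a median of -0.02 and 0 calls, with 1 at an unadjusted p under 0.05. The median over all 8156 tested genes was -0.02, with 2 genes called higher and 1 lower (0.0368%) and 61 at an unadjusted p under 0.05. These gene counts leave out probe sets assigned to several genes, among them those of Snurf/Snrpn, and the chromosome counts also leave out C230091D08Rik, which has no position. The labels do not give the breakpoints, so genes inside and outside the duplicated segments are not separated here.

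**Figure D3:**
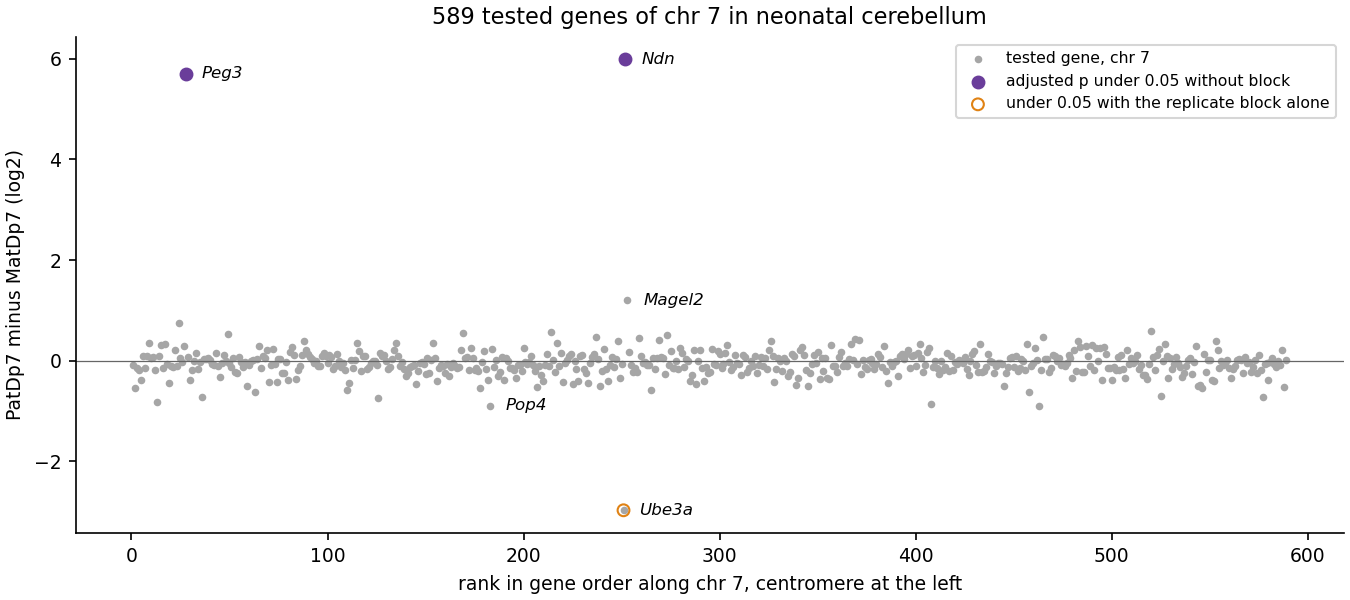
Log2 difference PatDp7 minus MatDp7 of the 589 tested genes of chromosome 7 in gene order, 1 probe set per gene. Peg3, at rank 28, and Ndn, at rank 252, stand out above, Ube3a stands out below, and the other genes drawn lie between -0.89 (Pop4) and 1.21 (Magel2). Probe sets assigned to several genes, such as those of Snurf/Snrpn, and genes with no position, such as C230091D08Rik, are not drawn.

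Away from the clusters on chromosome 7, Uri1, which encodes a prefoldin-like chaperone, was called with the block at 1 of its 3 probe sets. At 1433913_at Uri1 had 456 and 715.4 in MatDp7 and 154 and 251 in PatDp7, with differences of -1.31 and -1.34 in the pairs. The fit gave -1.32 ± 0.268, with a limma adjusted p of 0.542 without the block and 0.0268 with it, and the latter call was lost in each of 4 fits that left out 1 array (0.0687 to 0.626). The other Uri1 probe sets, 1419273_at and 1419274_at, differed by -0.02 and 0.04. Pop4, which encodes a subunit of the RNA-processing enzymes RNase P and RNase MRP, had 359 and 372 in MatDp7 and 149 and 199.8 in PatDp7, a difference of -0.89 ± 0.249 that was not called in either fit.

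Imprinted genes elsewhere were not called. Of the 9 tested on distal chromosome 7, 0 passed or had an unadjusted p under 0.05, with differences of -0.73 to 0.18. Over all 8156 tested genes 3 were called (0.0368%) and 61 had an unadjusted p under 0.05, so 0 among a few genes says little. Igf2, the growth factor gene of that region, had 1907 and 4973 in MatDp7 and 1404 and 4862 in PatDp7, a difference of -0.23 ± 0.5997. Cdkn1c, a cell cycle inhibitor gene of the same region, gave the lowest value, -0.73 ± 0.416, with -1.17 in replicate 1 and -0.29 in replicate 2. Of 19 imprinted genes on other chromosomes and 2 on chromosome 15, 0 passed by limma or had an unadjusted p under 0.05, with medians of 0.03 and 0.15.

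Of the 15 probe sets called without the block, 2 had no gene in the annotation, and the block added 2 more. All 4 were lower in PatDp7. The probe set 1452418_at had 8003 and 6727 in MatDp7 and 509 and 525 in PatDp7, a difference of -3.70 ± 0.507 (limma adjusted p = 0.0407). For 1427932_s_at the values were 3826 and 6470 against 694 and 676, a difference of -2.77 ± 0.339 (limma adjusted p = 0.0175). The probe sets 1453238_s_at and 1435137_s_at differed by -3.53 and -3.01 and passed with the block alone. Without the block, the call of 1452418_at was lost in each of 4 fits that left out 1 array and that of 1427932_s_at in 3 of 4, all but the fit without MatDp7 replicate 1 (limma adjusted p = 0.0307). With the block none of the 4 probe sets lost its call in such a fit.

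The same contrast was then set beside that of neonatal cortex and of 15.5 dpc brain. No probe set differed between cerebellum and cortex in the limma fit without the block, although 102 had an unadjusted p under 0.05 (0.751%). The same held for cerebellum against 15.5 dpc brain, with 0 called and 100 under 0.05 (0.737%). The paternally expressed genes had the same order of levels in each tissue. Ndn at 1437853_x_at differed by 5.99 ± 0.361 in cerebellum, 6.39 ± 0.361 in cortex and 6.61 ± 0.361 at 15.5 dpc, and Peg3 at 1433924_at by 6.15, 5.42 and 5.24, each ± 0.30. Neither interaction passed for either gene.

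Ube3a at 1416680_at was most negative in cerebellum, at -2.97, against -2.27 in cortex and -1.57 at 15.5 dpc. With the block, the cerebellum minus 15.5 dpc difference was -1.40 ± 0.376 and did not pass. C230091D08Rik at 1438695_at followed the same order, at -2.33, -1.68 and -1.31, and its interaction with 15.5 dpc brain of -1.02 ± 0.374 did not pass either. In the 13.5 dpc brains, a single array of each duplication, untested, gave -0.50 for Ube3a and -0.44 for C230091D08Rik. These values are in the same direction but smaller in the embryonic brains, and no test here shows that the size of the difference depends on age or region.

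With the block, the limma fit called 1 interaction with cortex (0.00737%) and 2 with 15.5 dpc brain (0.0147%). Elp2, which encodes a subunit of the Elongator complex, had 110.0 and 175 in cerebellum MatDp7 and 268 and 404 in PatDp7, but 276 and 312 against 57.3 and 93.3 in cortex. Its parental difference was 0.997 in cerebellum and -1.46 in cortex. The other Elp2 probe set, with 2376 and 2721 against 2321 and 2457 in cerebellum, differed by -0.09 there and by 0.31 in cortex. The unannotated 1453238_s_at and 1427932_s_at had parental differences of -3.53 and -2.77 in cerebellum and of 0.42 and 0.76 at 15.5 dpc. In MatDp7 the probe set 1453238_s_at had 2704 and 2592 in cerebellum against 94.9 and 59.5 at 15.5 dpc.

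**Figure D4:**
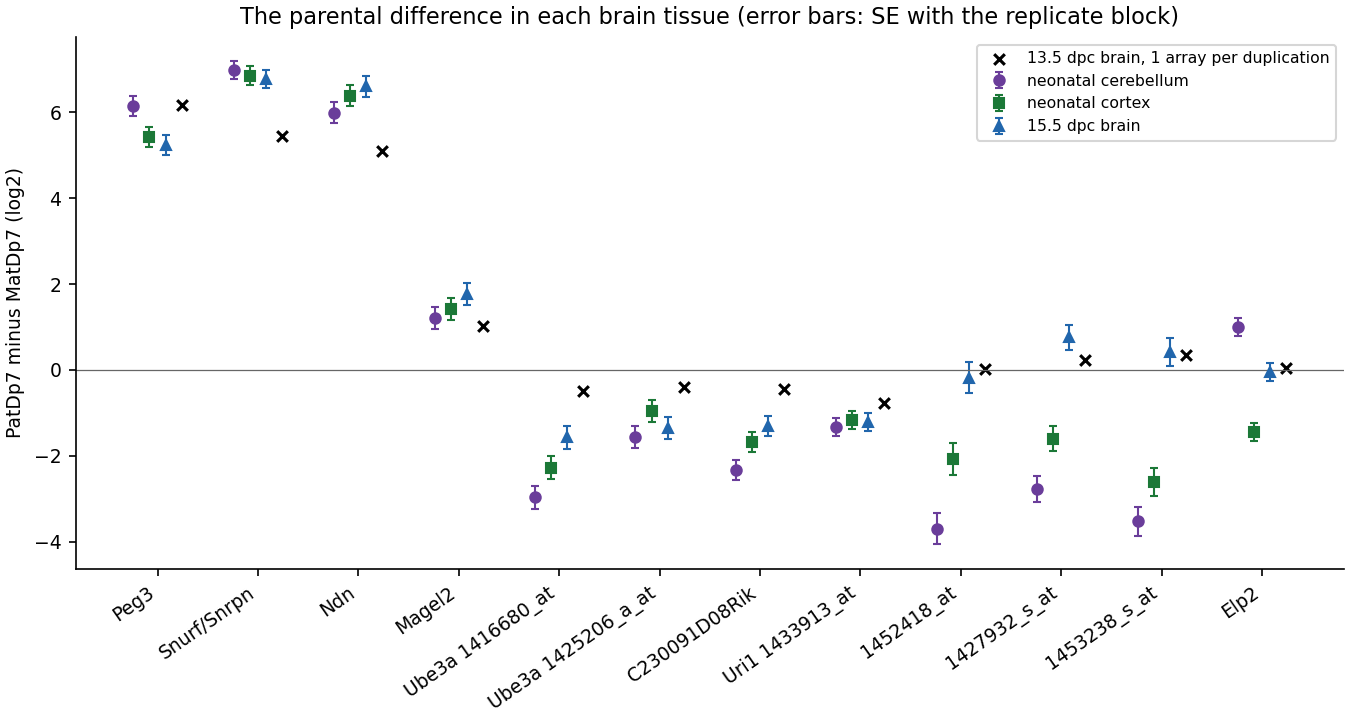
Log2 difference PatDp7 minus MatDp7 in neonatal cerebellum, neonatal cortex and 15.5 dpc brain (points with the standard error of the fit with the replicate block, 2 arrays per duplication) and in 13.5 dpc brain (crosses, 1 array per duplication, no error). Peg3, Snurf/Snrpn, Ndn and Magel2 are above 0 in all tissues, Ube3a, C230091D08Rik and Uri1 are below 0, the 3 unannotated probe sets are far below 0 in both neonatal tissues and not in the embryonic brains, and Elp2 is above 0 in cerebellum and below 0 in cortex.

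Lists of cell type markers and pathway genes held 0 called members outside the imprinted genes, in the limma fit with or without the block. Only 3 of all 8156 tested genes were called without the block (0.0368%), so 0 in a short list is not a result about its members. The lists were chosen with earlier results of these data known. The granule cell lineage list (16 tested genes) had a median of 0.08, the Purkinje cell list (13) 0.12, the inhibitory interneuron list (7) 0.07, astroglia (14) 0.01, the oligodendrocyte lineage (9) 0.10, microglia (9) -0.09 and choroid plexus (7) 0.00. In the granule cell list 3 members were higher and 5 lower in both pairs, against 21.6% and 29.9% of all tested genes. Among the lower ones, Nfia at its brightest probe set differed by -1.36 and -1.07 in the pairs and was not called. The endothelium and pericyte list (11) had a median of -0.19. In both pairs 7 of its members were lower and 0 higher, against 29.9% and 21.6% of all tested genes. Car8, a gene of Purkinje cells, had 301 and 573 in MatDp7 and 890.3 and 807 in PatDp7, a difference of 0.94 ± 0.392 that did not pass. Fabp7, a marker of Bergmann glia, had 13360 and 8471 in MatDp7 and 12474 and 8841 in PatDp7, so its order followed the replicate number.

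Meningeal genes were lower in PatDp7 without passing the test. Of 14 tested members 13 were lower in both pairs, against 29.9% of all tested genes, and their median was -0.67. limma called 0, and 1 had an unadjusted p under 0.05. The median was -1.07 in replicate 1 and -0.37 in replicate 2. In the fit without the block it was -1.12 without MatDp7 replicate 1 and -0.44 without MatDp7 replicate 2. Without PatDp7 replicate 1 it was -0.08, and without PatDp7 replicate 2 it was -1.49. Such a fit sets 1 replicate number of a duplication against both of the other, so these values also hold the replicate difference. Col1a2, a fibrillar collagen gene, had 3375 and 2982 in MatDp7 and 995 and 1943 in PatDp7, a difference of -1.16 ± 0.426. Crabp2, a retinoic acid binding protein gene, had 269 and 368 in MatDp7 and 8.93 and 269.7 in PatDp7. The summed intensity of the 14 genes was 11627 and 14527 in MatDp7 and 4141 and 10599 in PatDp7, lowest on PatDp7 replicate 1.

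That array stood apart for Ptgds, the prostaglandin D synthase gene, which in the young brain is strong in the leptomeninges. Ptgds at 1423859_a_at had 8985 and 10297 in MatDp7 but 202 and 10171 in PatDp7, and its second probe set showed the same order. Ptgds and the next 3 genes were named after their values were seen, because they differed by at least 3 in replicate 1 and by less than 1 in replicate 2. Hoxa5, a gene of the posterior hindbrain and spinal cord, had 4683 on MatDp7 replicate 1 and 14.3, 135 and 68.5 on the others, and Rpgrip1, a photoreceptor cilium gene, 4684 on that array and at most 201 elsewhere. Lin7c at its most different probe set had 1495 on PatDp7 replicate 1 and at most 107 elsewhere. The part of tissue composition in these single-array values, and in the meningeal list, was not tested.

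Immediate early genes are transcription factors and feedback regulators induced within minutes of a stimulus. Of 10 tested members 10 were lower in PatDp7 in both pairs, against 29.9% of all tested genes, with a median of -0.61. limma called 0 of them, and 4 had an unadjusted p under 0.05. Klf2 had 451 and 364 in MatDp7 and 151 and 154 in PatDp7, a difference of -1.16 ± 0.253 (limma adjusted p = 0.861 without the block and 0.121 with it). Fos had 812 and 332 against 218 and 205, and Dusp1 1175 and 949.7 against 743 and 518. The groups did not overlap for any of these 3 genes, as for 1368 of the tested probe sets with PatDp7 lower (10.1%). The list's median lay between -0.64 and -0.42 when any 1 array was left out.

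Glucocorticoid-induced genes gave 8 of 10 lower in both pairs, against 29.9% of all tested genes, and a median of -0.49. limma called 0 of them, and 3 had an unadjusted p under 0.05. The median was -0.40 in replicate 1 and -0.50 in replicate 2. In the fit without the block it was -0.75 without MatDp7 replicate 1 and -0.36 without MatDp7 replicate 2. Without PatDp7 replicate 1 it was -0.31, and without PatDp7 replicate 2 it was -0.75. As for the meningeal list, the values from these fits also hold the replicate difference, so they do not show dependence on single arrays. Fkbp5, a chaperone of the glucocorticoid receptor, had 1327 and 1380 in MatDp7 and 741 and 952 in PatDp7, a difference of -0.66 ± 0.201. Sult1a1, a sulfotransferase gene, had 438 and 691 against 204 and 362. In cortex the list medians were -0.25 for meninges, -0.31 for immediate early and -0.37 for glucocorticoid-induced genes, and at 15.5 dpc 0.29, -0.02 and -0.04. Handling, time of collection and tissue composition are not given in the labels, and their part in these lists was not tested.

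**Figure D5:**
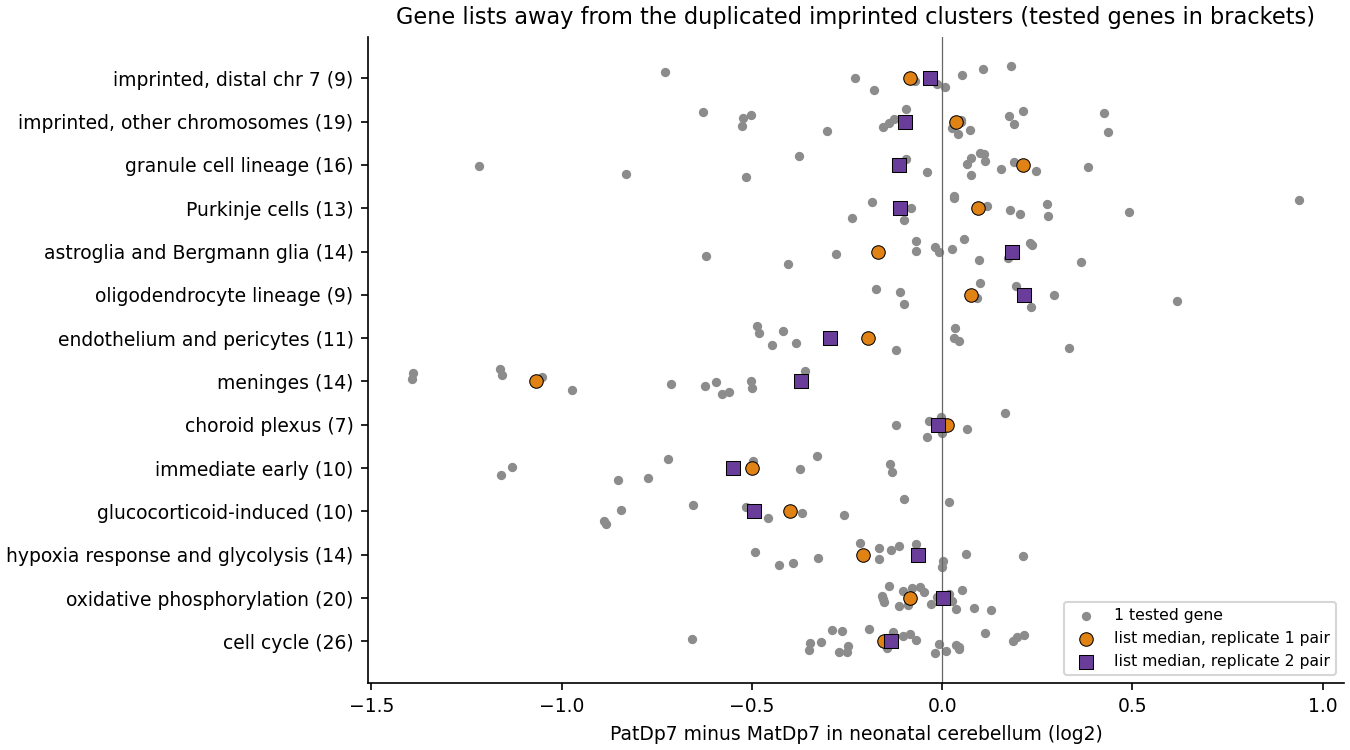
Log2 difference PatDp7 minus MatDp7 of the tested genes of 14 lists (grey points), with the list median in the replicate 1 pair (orange circle) and the replicate 2 pair (purple square). The meninges, immediate early and glucocorticoid-induced lists lie below 0 in both pairs, and meninges lie further below in replicate 1 (-1.07) than in replicate 2 (-0.37).

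Some other genes differed in the same direction in both pairs and did not pass in either fit. Of those named here, only Apod and Slc6a20a reached a log2 difference of 1 in size in both pairs. Higher in PatDp7 were Plppr4, a lipid phosphatase-related gene, with 1336 and 1198 in MatDp7 against 3074 and 2141, and Rgs17, a regulator of G protein signalling, with 444 and 1143 against 840.3 and 2303. Lower were Apod, which encodes the lipid carrier apolipoprotein D, with 1081 and 3618 against 311 and 1495, and Slc6a20a, a proline transporter gene, with 358 and 1454 against 12.2 and 636. Cyp1b1, a cytochrome P450 gene, had 424 and 569 against 185 and 318, and Akr1e1, an aldo-keto reductase gene, 604 and 573 against 313 and 315. The groups overlapped for Rgs17, Apod and Slc6a20a, whose order within each group followed the replicate number, and not for Plppr4, Cyp1b1 and Akr1e1. The smallest limma adjusted p with the block among these genes was 0.125, for Apod.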

How the data were processed

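The members and the gene lists were chosen with earlier results of these data known. The authors deposited 1 linear intensity per probe set and array. The submitters' processing notes name MAS5, without a version. Trimmed by 2%, the array means were 500.13 to 500.15, and no scaling was added. Of 22690 deposited probe sets 64 are controls. The platform annotation names 1 gene for 20380 of the other 22626, several for 691 and none for 1555. The GRCm38.p6 gene table changed 0 symbols and gave the chromosome order.

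The constant added before taking log2 was 51.7558, which is the 20th percentile of the values. The test covered probe sets whose mean log2 value over 14 arrays reached the 40th percentile (13576, for 8156 genes). limma 3.58.1 in R 4.3.3 fitted 8 group means with an intensity trend (6 residual and 3.15 prior degrees of freedom). Calls are Benjamini-Hochberg adjusted p under 0.05, and errors of differences are standard errors. An interaction is the cerebellum difference minus that of cortex or of 15.5 dpc brain.

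Same-numbered neonatal arrays deviated together (correlations of 0.710 to 0.815 in 6 pairs of groups). There are only 2 numbers and the labels do not call them pairs, so results are from the fit without a block unless the block is named. The block is the replicate number of the 8 neonatal arrays (5 residual and 6.81 prior degrees of freedom). A second form gives it to each region. A gene is represented by its probe set with the highest mean, and probe sets assigned to several genes enter no gene count. Named genes were drawn from the chromosome 7 imprinted and neighbouring genes, those called in either fit or in an interaction, and in each direction the 10 with the smallest adjusted p and the 10 with the largest smaller within-pair difference. From each other list up to 4 members with the smallest p and, for markers, the 2 brightest could be named. The fit was also run on simulated data with independent noise on each array. That simulation left out the shared deviation of same-numbered arrays, so it cannot show how either fit behaves with it. With 2 arrays per group, array number limits precision. Figures were drawn with matplotlib 3.10.9 in Python 3.11.15.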

Additional observations from a re-analysis of the deposited data

Results flagged for a closer look

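Elp2 had a parental difference that was 2.45 higher in cerebellum than in cortex on the log2 scale. This difference between the regions passed in the limma fit with the replicate block (adjusted p = 0.0365) and not without it, nor with the block given to each region, where 0 probe sets passed. It was seen at 1 of 2 Elp2 probe sets.

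The parental difference of the unannotated probe sets was lower in cerebellum than in 15.5 dpc brain, with a difference between the tissues of -3.53 for 1427932_s_at and -3.95 for 1453238_s_at. Both passed with the replicate block (limma adjusted p = 0.0172 for each) and neither without it (adjusted p = 0.53 for 1427932_s_at).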

How the results depend on the processing

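The 15 called probe sets became 14 to 17 with another added constant, filter, scaling or no intensity trend, 21 with either form of the replicate block, 10 with the 8 neonatal arrays only and 9 with the 4 cerebellum arrays only, and 10 to 15 when 1 cerebellum array was left out. The 21 called with the replicate block became 17 to 42 when 1 array was left out, with 42 without PatDp7 replicate 2, and 22 with no filter. These 2 alternatives were chosen after seeing the data. Counts from fits that left out 1 array can include newly called probe sets, so they do not give how many of the first calls stayed. The 3 called genes became 6 with no filter, 4 with the replicate block, 5 with the replicate block by region, 1 with the 8 neonatal or the 4 cerebellum arrays only, and 1 to 4 when 1 array was left out. The 0 interactions with cortex became 1 with the replicate block, 0 with the block by region and 0 to 1 when 1 array was left out (1 without cerebellum PatDp7 replicate 2). Those with 15.5 dpc brain became 2 with the replicate block, 3 with the block by region, and 0 to 1 when 1 array was left out. The 26 probe sets past 1 in both pairs became 148 at a limit of 0.5. Of 735 alternative values for 50 named probe sets, 2 changed sign, both of Zim3, which ranged from -0.20 to 0.37 when 1 array was left out. Apart from the fits that left out 1 array, 13 alternatives lost the call of the main fit. With a form of the replicate block 12 gained a call. The cause of these changes was not tested. The labels do not say that the replicate numbers are pairs. With 2 arrays per group the spread is estimated mostly from the other tissues, and MatDp7 values near the added constant limit the size, not the direction, of the largest differences.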
